A study of Mus musculus with 26 samples.

Results

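Sperm DNA methylation was described at 9 genes for enzymes that cut cyclic nucleotides, namely Pde5a, Pde4a, Pde4b, Pde4c, Pde4d, Pde8a, Pde2a, Pde10a and Cnp, out of 38951 RefSeq genes with a measured CpG position. The genes were chosen because methylation calls at genes of this kind had been made between SSCT F1 and control F1 sperm. As examples the study's text names Cnp, Pde4b, Pde4a, Pde5a and Pde2a. The calls of that comparison are therefore a description. All CpG positions within the GRCm38 span of each gene and 2000 bp on either side were taken where a library had 10 or more reads. This gave 2880 positions, with the strands of a CpG counted separately, of 2626422 in the series. Of these, 498 had 10 or more reads in all 20 offspring and 37 in all 26 libraries. Of the 498 positions, 127 were in Pde4d, 119 in Pde10a, 63 in Pde4a, 56 in Pde5a, 45 in Pde4b, 43 in Pde8a, 24 in Pde2a, 17 in Pde4c and 4 in Cnp.

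Cyclic nucleotide phosphodiesterases end the signal of cAMP and cGMP, the second messengers made by adenylyl and guanylyl cyclases, by hydrolysing them. In sperm, cAMP drives motility and capacitation. Pde5a encodes a cGMP-specific enzyme, Pde4a to Pde4d and Pde8a encode cAMP-specific enzymes, and Pde2a and Pde10a encode enzymes that act on both nucleotides. Cnp encodes the 2′,3′-cyclic nucleotide phosphodiesterase of myelin, which is not related to the others. In general, CpG-rich promoters are free of methylation in sperm and most other CpGs are methylated.

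RRBS, in which restriction fragments rich in CpGs are sequenced after bisulfite conversion, was performed on cauda epididymal sperm of 26 male mice. The 3 SSCT F0 mice were sterile W/W-v males that had received cultured spermatogonial stem cells of DBA/2J pups, and DBA/2J males served as the 3 control F0 mice, both 16 to 18 months old. The offspring were 3 months old DBA/2J males, 5 per group. Control F1 came from controls and SSCT F1 from transplanted fathers, SSCT F2/M from SSCT F1 females mated with control males, and SSCT F2/P from SSCT F1 males mated with control females. Controls were bred for 1 generation, so both SSCT F2 groups were compared with control F1. Host, donor cell culture and transplantation cannot be told apart in the F0 comparison.

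Groups are called here by the titles of the libraries. The titles go against group means of coverage at single CpGs given with the study, which fit another naming of the same 4 sets of offspring libraries. In that other naming, the set titled SSCT F2/P is SSCT F1, the set titled SSCT F2/M is control F1, the set titled SSCT F1 is SSCT F2/M and the set titled control F1 is SSCT F2/P. The numbers of positions the study tested in each comparison also fit that naming and not the titles, so the genes were taken, as far as these numbers show, from the comparison of the sets titled SSCT F2/P and SSCT F2/M. The other naming is given beside each comparison of single CpGs and beside 1 gene mean of Pde2a, and the titles alone are used elsewhere. Apart from SSCT F0 replicates 2 and 3, the libraries had 45609751 to 87705464 reads over CpG positions and 1465282 to 1789985 positions with 10 or more reads. SSCT F0 replicate 2 had 965360 such positions and SSCT F0 replicate 3 had 175631, and the labels note a low DNA input for the numbers that the SSCT F0 files carry. In the 23 other libraries, the medians near the starts of maternally methylated imprinted genes were 0 to 1.94%, with single libraries up to 33.3% near Mest and 13.9% near Peg3, and methylation around H19 was 51.5 to 84.4%. SSCT F0 replicate 3 had 33.3% near Peg3 over 6 positions and 0.0282% around H19 over 8. SSCT F0 replicates 1 and 2 had 3.12 and 4.59% near Peg3 and 66.4 and 57.5% around H19.

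The promoter windows of the genes differ in CpG content. Each window runs from 250 bases before to 50 bases after a start listed by RefSeq (GRCm38.p6). Of 19 windows of the 9 genes, 11 held CCGG, the site of MspI, the usual enzyme of RRBS (the same letters on both strands, each site containing a CpG), as did 52.8% of all 32817 windows listed. The windows below are printed because they hold most of the measured promoter CpGs of their gene or, in Pde4b, a CpG called between groups. Capitals mark CpGs with 10 or more reads in 5 or more offspring.
Pde5a, chr3:122728908-122729207, + strand: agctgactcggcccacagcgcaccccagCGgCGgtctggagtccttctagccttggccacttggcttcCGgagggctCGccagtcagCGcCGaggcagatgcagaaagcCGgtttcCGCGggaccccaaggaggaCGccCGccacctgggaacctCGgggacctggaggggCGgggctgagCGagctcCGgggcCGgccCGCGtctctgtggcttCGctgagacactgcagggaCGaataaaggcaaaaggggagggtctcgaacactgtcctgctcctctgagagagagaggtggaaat
Pde8a, chr7:81213015-81213314, + strand: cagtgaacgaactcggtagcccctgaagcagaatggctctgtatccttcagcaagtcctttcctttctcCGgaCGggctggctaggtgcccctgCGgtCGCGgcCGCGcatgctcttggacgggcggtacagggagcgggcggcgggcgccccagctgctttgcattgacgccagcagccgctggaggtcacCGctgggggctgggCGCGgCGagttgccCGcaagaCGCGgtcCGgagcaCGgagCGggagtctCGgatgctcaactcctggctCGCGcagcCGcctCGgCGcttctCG
Pde4a, chr9:21165464-21165763, + strand: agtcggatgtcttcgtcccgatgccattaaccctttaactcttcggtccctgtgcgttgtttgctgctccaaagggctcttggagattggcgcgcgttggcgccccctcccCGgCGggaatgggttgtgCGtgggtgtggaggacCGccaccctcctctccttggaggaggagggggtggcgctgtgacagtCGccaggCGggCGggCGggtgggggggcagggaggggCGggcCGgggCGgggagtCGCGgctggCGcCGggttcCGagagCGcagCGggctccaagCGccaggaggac
Pde2a, chr7:101451002-101451301, + strand: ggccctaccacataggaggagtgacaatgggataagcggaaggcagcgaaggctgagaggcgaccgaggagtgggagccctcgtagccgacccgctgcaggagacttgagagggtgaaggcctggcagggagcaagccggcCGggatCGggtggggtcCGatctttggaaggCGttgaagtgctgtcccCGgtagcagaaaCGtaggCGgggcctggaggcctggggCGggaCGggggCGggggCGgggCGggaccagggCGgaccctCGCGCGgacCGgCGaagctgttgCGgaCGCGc
Pde4b, chr4:102589593-102589892, + strand: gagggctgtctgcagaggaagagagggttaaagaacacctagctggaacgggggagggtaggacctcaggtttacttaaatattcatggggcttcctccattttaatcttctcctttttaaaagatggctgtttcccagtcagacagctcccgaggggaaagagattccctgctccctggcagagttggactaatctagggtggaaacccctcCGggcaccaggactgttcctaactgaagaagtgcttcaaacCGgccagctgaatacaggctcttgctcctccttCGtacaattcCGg
The windows of Pde5a, Pde8a, Pde4a and Pde2a held 23, 34, 29 and 29 CpGs, against a median of 7 over all windows. The window of Pde4b held 6 CpGs at 51.3% GC. Its first CpG in capitals, chr4:102589806, lies 37 bp before the start and had 32.6 to 100% methylation in the offspring in which it was measured.

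Close to listed starts the genes were hardly methylated. Within 500 bp of a start, 94 of 97 positions had a mean below 20% over the 20 offspring, and the mean of all 97 was 3.63%. Pde5a, the cGMP-specific enzyme, had 29 such positions with a mean of 1.36%, in a low block of 46 positions over 1104 bp (chr3:122728976-122730079). Pde8a had 15 with a mean of 1.07%, in a low block of 31 positions over 1598 bp (chr7:81212407-81214004). Pde10a, which acts on both nucleotides, had 22 with a mean of 2.18%, in a low block of 43 positions over 1997 bp (chr17:8800971-8802967). The 8 positions of Pde2a had a mean of 1.28% and the 3 of Cnp 2.02%. Pde4a had the highest mean near its starts, 11.6% over 20 positions. Its 3 positions above 20% lay 425, 426 and 436 bp after another of its listed starts, and the 7 low positions beside them (chr9:21184351-21184511) had a mean of 14.7%.

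Pde4b, Pde4c and Pde4d had no position measured in all offspring within 500 bp of a listed start, but carried low blocks away from them. Pde4d, whose span is 1301793 bp, had 3, of 13, 8 and 40 positions with means of 1.06, 1.56 and 1.39%, the last at chr13:109902826-109903229. Pde4b had 17 low positions at the beginning of its span (chr4:102087390-102087962) with a mean of 1.87%. Its RefSeq span begins at chr4:102087332, which is not among the listed starts, the nearest of which lay 333593 bp from the block. The list of starts is thus not complete, and this block is away only from the starts listed. Pde4c had 12 at chr8:70744451-70744955 with a mean of 2.45%. Another block of Pde4a, 24 positions at chr9:21181596-21181863, had a mean of 1.85%. The RefSeq table used lists no exons, so exon and intron are not given here.

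Over the whole genes, positions were mostly either low or high. Of the 498 positions, 308 had a mean below 20%, 173 above 80% and 17 between, or 61.8, 34.7 and 3.41%, against 63.2, 29.9 and 6.94% of 460453 positions of the series. Pde10a had 62 of 119 positions above 80%, and Pde5a had 47 of 56 below 20%. Of the 17 intermediate positions, Pde4a held 7, within 2 short stretches, Pde10a held 6, Pde4d 2, and Pde4b and Cnp 1 each.

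**Figure D1:**
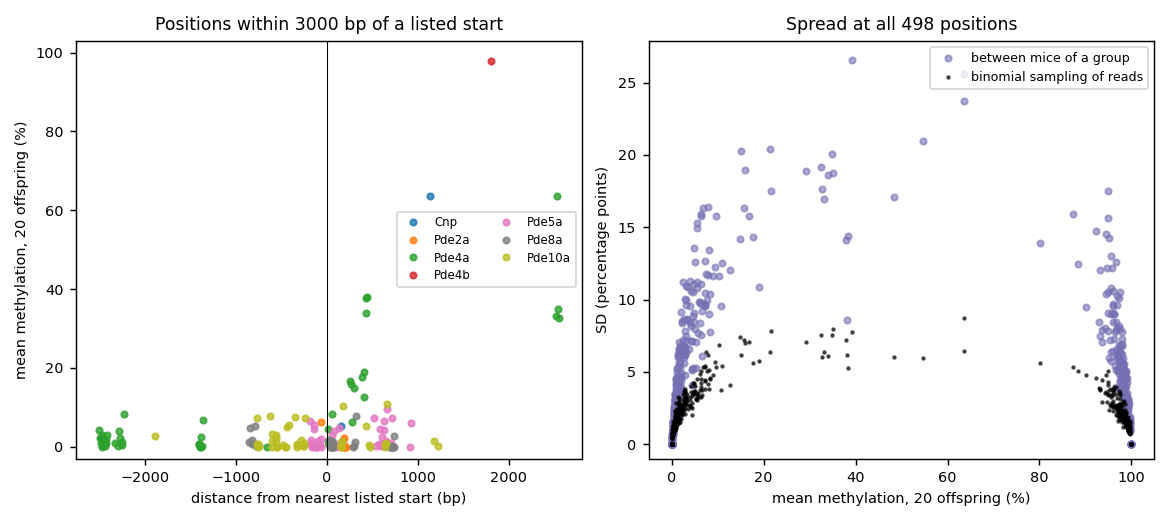
Left, mean methylation in percent over the 20 offspring of positions within 3000 bp of a listed start, against the distance from it in bp (negative before it), coloured by gene. Within 500 bp most positions lie near 0, and the 3 above 20% belong to Pde4a. Right, the SD in percentage points between mice of a group at the 498 positions against the mean level, with the SD from binomial sampling of the reads in black. The spread between mice is widest at intermediate levels and mostly lies above the binomial one.

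Mice of the same group differed by more than read sampling gives. At the 17 intermediate positions the median SD between mice of a group was 18.7 percentage points, against 6.47 from binomial sampling of the reads. Over all intermediate positions of the series these values were 18.5 and 7.30. At the low positions of the 9 genes the SDs were 3.05 and 1.71, and at the high positions 5.01 and 2.12. The SD between mice exceeded the binomial one at 399 of the 498 positions, or 80.1%, against 83.1% in the series. Binomial sampling covers counting error only, since PCR copies of a molecule count as separate reads.

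The CpG with the widest spread in each gene shows the size of these differences. In Pde10a it was chr17:8659113 (− strand, 142632 bp before the nearest listed start). SSCT F2/P mice had 58.5, 65.6, 0, 5.88 and 44.6% there, and control F1 mice 9.43, 35.4, 47.5, 53.3 and 64.5%. The groups covered nearly the same range. In Pde4a it was chr9:21168240 (− strand), where offspring ranged from 23.1 to 100%, and in Cnp chr11:100576071 (+ strand), where they ranged from 20 to 100%. In Pde4d it was chr13:109810160 (+ strand), with a range from 0 to 67.6%. The other strand of this CpG, at chr13:109810161, had a mean of 97.6% over the offspring.

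In the other genes the widest spread was at a position with a mean below 20% over the offspring. At Pde2a chr7:101451191, the fifth CpG in capitals of its window above, SSCT F2/P replicate 2 had 69.2% in 13 reads, and the other SSCT F2/P mice had 6.73, 0, 0 and 0%. At Pde8a chr7:81213584 (− strand), control F1 replicate 5 had 60% in 20 reads and the other control F1 mice 10.7% or less. At Pde5a chr3:122729821 (− strand), SSCT F2/M replicate 3 had 60.9% in 23 reads and the other SSCT F2/M mice 7.69% or less. Single mice were thus far above their group in each of these genes. Other groups were raised as well at the Pde5a position, where SSCT F1 mice had 0, 3.0, 28.6, 29.2 and 31.2% and control F0 mice 13.3 to 42.3%. At Pde4b chr4:102551537 (− strand), control F1 replicate 1 had 71.7% in 53 reads and the other control F1 mice 12.2% or less. The highest mouse there had 42.4% in SSCT F1, 41.5% in SSCT F2/P and 23.0% in SSCT F2/M. The other strand of this CpG had a mean of 98.4% over the offspring. At Pde4c chr8:70744955 (− strand), the highest offspring had 33.3%.

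The strands of a CpG did not always give the same measured level. Of 27 CpGs of the genes measured on both strands in all offspring, 4 differed by more than 25 percentage points, or 14.8%, against 2.40% of 49616 in the series. In Pde4b, chr4:102551536 had 98.4% ± 3.23 (SD, n = 20) on the + strand and chr4:102551537 had 14.96% ± 18.7 on the − strand. Nearby, chr4:102551584 had 38.3% ± 15.7 on the + strand and chr4:102551585 had 100% in every offspring on the − strand. In Pde4d, chr13:109810112 and chr13:109810113 had 95.003% ± 8.59 and 8.15% ± 13.3, and chr13:109810160 and chr13:109810161 had 32.6% ± 18.3 and 97.6% ± 5.13. Each difference had the same direction in 20 of 20 offspring. The widest spread in Pde4b and Pde4d was thus measured on the lower strand of such a CpG. The differing CpGs of each gene lay close together, so they need not be separate cases. Whether these differences were in the sperm DNA or came from library preparation or read alignment was not tested.

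The study asked whether methylation differs between sperm of SSCT-derived and control mice. Levels were averaged over each gene, with the groups named by the titles. Over the positions measured in the 23 libraries other than SSCT F0, Pde10a had 53.1% ± 0.707 in control F0 (SD, n = 3), 53.2% ± 0.569 in control F1, 52.8% ± 0.825 in SSCT F1, 52.8% ± 0.980 in SSCT F2/P and 52.8% ± 0.806 in SSCT F2/M (SD, n = 5 each). The group means spanned 49.7 to 51.1% in Pde2a, 45.2 to 46.1% in Pde4b, 36.6 to 37.1% in Pde4d and 26.6 to 27.8% in Pde8a. They spanned 20.1 to 22.3% in Pde4c, 17.2 to 17.7% in Pde5a, 16.0 to 16.99% in Pde4a and 14.6 to 20.1% in Cnp, the last over 4 positions. In this order of genes, single mice overlapped between Pde10a and Pde2a, between Pde2a and Pde4b, among Pde4c, Pde5a, Pde4a and Cnp, and between Cnp and Pde8a, while Pde4d stood apart from its neighbours. The order depends on which positions the restriction fragments cover. SSCT F0 could be set beside control F0 over the 609 positions covered without SSCT F0 replicate 3. SSCT F0 was lower in 8 of the 9 genes, as in 56.5% of all genes, and did not overlap control F0 in 3, where 27% of all genes did not. These were Cnp, with 10.5 and 3.10% in SSCT F0 and 11.1 to 13.2% in control F0, Pde5a, with 5.39 and 3.75% and 5.68 to 6.38%, and Pde8a, with 11.09 and 11.1% and 11.5 to 12.2%. Pde4c alone had the higher mean in SSCT F0, with 4.96 and 12.7% against 2.02 to 8.71%.

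**Figure D2:**
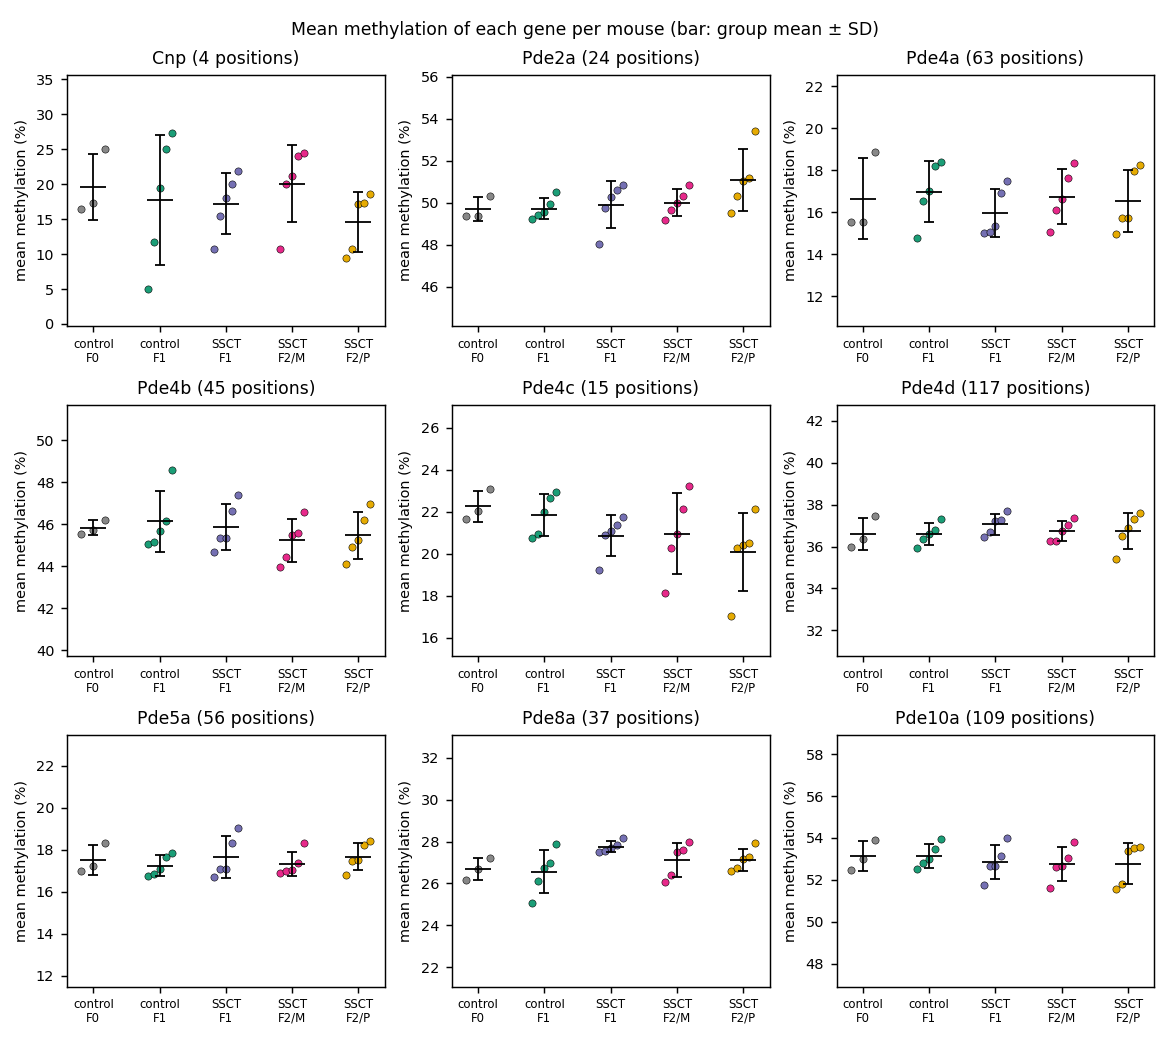
Mean methylation in percent of each gene in each mouse, over the positions with 10 or more reads in the 23 libraries other than SSCT F0. Points are mice, sorted by value within a group, bars are the group mean ± SD, and the vertical axes differ between genes and do not start at 0 in most. In each gene the range of every SSCT offspring group overlaps that of control F1, and Cnp, with 4 positions, has the widest spread.

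The gene means were tested with limma, fitted on all genes with 3 or more positions in each comparison. In each of the 5 offspring comparisons, limma called 0 of the 9 genes at an adjusted p under 0.05, and 1 value among them had an unadjusted p under 0.05. In the F0 comparison limma called 0 of the 5 genes that had enough positions, and 0 had an unadjusted p under 0.05. The percent called over all genes was 0 in all 6 comparisons, so that these counts say little about the members, and the share of all genes with an unadjusted p under 0.05 was 7.31% for SSCT F0, 4.56% for SSCT F1, 4.54% for SSCT F2/M and 4.67% for SSCT F2/P against their controls, 4.29% for SSCT F2/P against SSCT F2/M and 4.42% for SSCT F1 against SSCT F2/M. The 1 value was Pde2a between the sets titled SSCT F2/P and control F1. The other naming calls these SSCT F1 and SSCT F2/P, so that neither would be a control. SSCT F2/P mice ranged from 33.7 to 35.8% and control F1 mice from 33.0 to 34.2% over its 39 positions, a difference of 1.12 percentage points with SE 0.495 (limma, adjusted p = 0.976). In the F0 comparison the lowest p was that of Pde5a, with 0 to 0.383% in SSCT F0 and 1.10 to 4.67% in control F0 over 16 positions (limma, adjusted p = 0.731).

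Single CpGs were compared by a logistic model of methylated and unmethylated reads, fitted on all covered positions, and called at q under 0.01 with a read-weighted difference above 25 percentage points. In this chi-square test the reads are the unit, so the spread between mice described above is not in it. In the F0 comparison, 1 of 74 member positions was called, against 5.83% of all positions tested. Cnp, Pde4a and Pde4c had no position covered in all 6 libraries, since SSCT F0 replicate 3 covered few. The called position was chr17:8801921 (+ strand), 176 bp after a listed start of Pde10a. SSCT F0 mice had 0, 0 and 100% in 26, 34 and 176 reads, and control F0 mice 0, 0 and 15.8%. SSCT F0 replicate 3 alone was high, and the groups overlapped. The read-weighted difference was 70.1 percentage points, and it was -4.44 without SSCT F0 replicate 3. Of 17 member windows of 1000 bp, 0 were called by the chi-square test, against 10% of all windows.

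Without SSCT F0 replicate 3, 609 member positions in all 9 genes could be compared and 25 were called, or 4.11%, against 5.83% of all positions. Of the 25, 14 were lower and 11 higher in SSCT F0, where 2.98 and 2.85% of all positions were. Pde10a had 9, Pde4a and Pde4c 4 each, Cnp 3, Pde2a and Pde8a 2 each and Pde4d 1, while Pde4b and Pde5a had 0 of 50 and 80 tested. The 4 positions of Pde4c were all higher and the 4 of Pde4a all lower in SSCT F0. In Pde4c, chr8:70745329, chr8:70745340 and chr8:70745346 lay close together. SSCT F0 replicate 2 had 95.2, 100 and 100% there and SSCT F0 replicate 1 had 0. In Pde4a, chr9:21168253, chr9:21168340 and chr9:21168377 also lay close together. The positions of a gene are thus not independent. The positions named next were chosen after their values were seen. At Pde4c chr8:70745346, SSCT F0 replicate 2 had 100%, and SSCT F0 replicate 1 and all control F0 mice had 0. At Cnp chr11:100576184, SSCT F0 replicate 2 had 0 and all the others 100%. SSCT F0 replicate 2 stood apart alone at both positions.

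This library was at the ends of the scale more often than the others. Of 26 member positions with intermediate levels in control F0, SSCT F0 replicate 2 was at 0 or 100% at 21, SSCT F0 replicate 1 at 8 and the control F0 mice at 2, 5 and 5. Choosing positions by the control F0 mean by itself keeps control F0 mice from 0 and 100%. Only the SSCT F0 replicates are therefore compared evenly by these counts. Over all 609 positions it was at 0 or 100% at 95.2%, against 78.3 to 85.9% in the other 4 libraries. The part of its low DNA input in the calls was not tested. At 9 of the 25 positions both SSCT F0 mice lay on the same side of all control F0 mice. The share of such positions among all those called in the series was not computed, so nothing is read from this count. Those given next were again chosen after their values were seen. At Pde10a chr17:8813203 (− strand), SSCT F0 mice had 48.5 and 46.9% and control F0 mice 83.5, 89.0 and 67.7%. At Pde8a chr7:81212477 (− strand), 788 bp before the start, SSCT F0 mice had 28.6 and 33.9% and control F0 mice 0, 0 and 11.1%. At Pde4a chr9:21184537 (− strand), SSCT F0 mice had 6.67 and 0% and control F0 mice 40.4, 39.4 and 49.5%. Among all tested member positions the groups did not overlap at 22 of 609, against 5.04% of all positions.

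**Figure D3:**
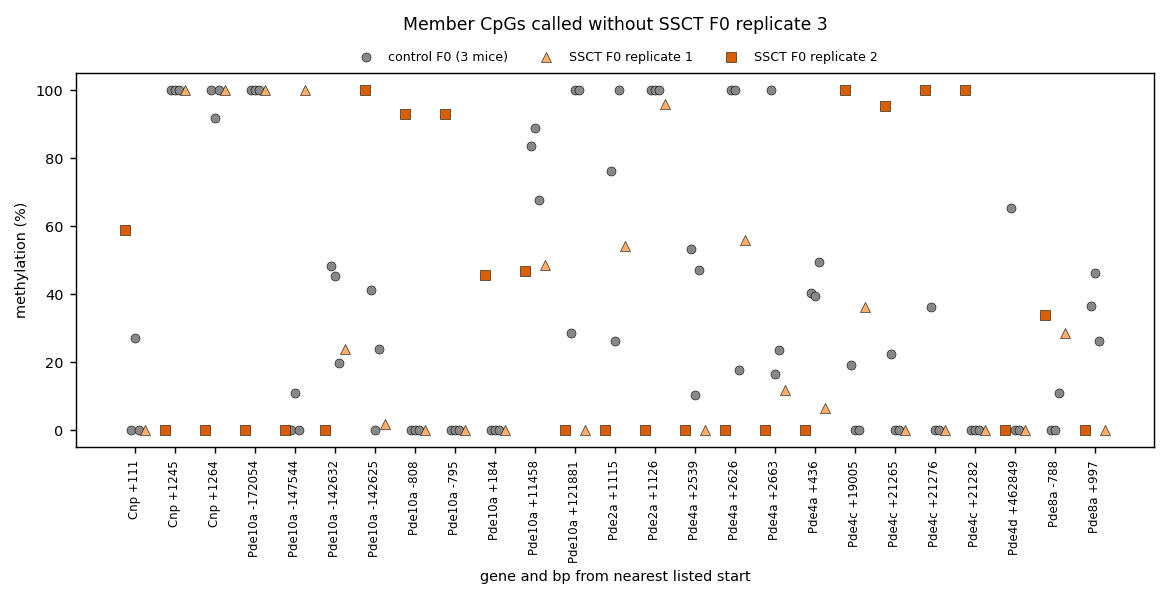
Methylation in percent of the F0 mice at the 25 CpGs of the genes called without SSCT F0 replicate 3, labelled by gene and distance in bp from the nearest listed start. Grey circles are the 3 control F0 mice, triangles SSCT F0 replicate 1 and squares SSCT F0 replicate 2. The square lies at 0 or 100% at 18 of the 25 CpGs.

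Between the offspring titled SSCT F2/M and control F1, which the other naming calls control F1 and SSCT F2/P, 2 of 746 member positions were called, against 0.42% of all positions. Both were in Pde4a and lower in SSCT F2/M, as were 0.201% of all positions. At chr9:21168020 (+ strand, 2306 bp after a listed start), SSCT F2/M mice had 100, 61.8, 29.4, 0 and 57.1% and control F1 mice 66.7, 100, 100, 77.4 and 100%. At chr9:21184173 (+ strand, 72 bp after a listed start), SSCT F2/M mice had 0, 16.1, 0, 14.9 and 42.9% and control F1 mice 13.3, 60, 50, 59.3 and 56.7%. SSCT F2/M was mostly lower at both, with overlap from SSCT F2/M replicate 1 at the former and control F1 replicate 1 at the latter. The read-weighted differences were -32.6 and -35.1 percentage points. The exact two-sided permutation test over mice gave p = 0.0635 and p = 0.0317, for CpGs that had been picked for their difference. Without SSCT F2/M replicate 4, the difference at chr9:21168020 was -22.8 and the call was lost.

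Between the offspring titled SSCT F2/P and control F1, which the other naming calls SSCT F1 and SSCT F2/P, 2 of 745 member positions were called, against 0.43% of all positions. Both were lower in SSCT F2/P, as were 0.224% of all positions, and the control F1 mice are those of the preceding comparison. Both comparisons share their SSCT F2 mice with the one that most likely chose the genes. At Pde4a chr9:21168020 again, SSCT F2/P mice had 81.0, 67.7, 59.4, 51.4 and 13.04%. At Cnp chr11:100576401 (− strand, 1462 bp after the start), SSCT F2/P mice had 75.6, 0, 66.7, 86.0 and 100%, and control F1 mice had 100% in all 5. The groups overlapped at both positions, at that of Cnp through SSCT F2/P replicate 5 alone. The read-weighted differences were -28.5 and -27.2 percentage points, with p = 0.0397 and p = 0.0476 in the exact permutation test, again for picked CpGs. The Pde4a difference was -21.2 without SSCT F2/P replicate 5 and -24.96 without control F1 replicate 5, and the Cnp difference -19.2 without SSCT F2/P replicate 2, each with the call lost. By the chi-square test, 0 of 162 member windows for SSCT F2/M and 0 of 153 for SSCT F2/P were called, against 0.363 and 0.392% of all windows.

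Between the offspring titled SSCT F1 and control F1, which the other naming calls SSCT F2/M and SSCT F2/P, 0 of 624 member positions were called by the chi-square test, against 0.462% of all positions, and 53 had an unadjusted p under 0.05 in an F test with the spread between mice in it, as had 7.68% of all positions. Between those titled SSCT F1 and SSCT F2/M, which the other naming calls SSCT F2/M and control F1, 0 of 638 were called, against 0.439%, and 52 had an unadjusted p under 0.05 in the F test, as had 7.69% of all positions. Closest to the threshold were Pde4d chr13:109888086, with 24.2 percentage points in the former, and Pde4a chr9:21184351, with 24.3 in the latter. No window was called by the chi-square test among 139 and 142, against 0.415 and 0.369% of all windows. The former carries the titles of the comparison for which the genes were named, and nothing is read from its count.

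Between the offspring titled SSCT F2/P and SSCT F2/M, which the other naming calls SSCT F1 and control F1, 7 of 811 member positions were called, where 0.404% of all positions were. As the genes were most likely chosen by the calls between these mice, the values are a description. The 7 lay in 7 genes, and Pde4c and Pde4d had none. In Pde5a, chr3:122730501 (− strand, 1343 bp after the start) had 51.9 and 78.6% in SSCT F2/P replicates 2 and 4, and 0 in the other 3 SSCT F2/P mice and in all 5 SSCT F2/M mice. On the other strand SSCT F2/P mice had 0 to 6.67%, and the 3 SSCT F2/M mice measured had 6.06, 8.11 and 25%, so SSCT F2/P was not higher there. In Pde8a, chr7:81301022 (+ strand, 87757 bp after the start) had 0, 62.5, 48.8, 47.1 and 51.1% in SSCT F2/P and 0, 19.3, 0, 0 and 45.9% in SSCT F2/M. Its other strand had 100% in every library that measured it. The difference of 25.1 percentage points in Pde8a was just inside the threshold, and Pde4a chr9:21184406, with 20.9, was the next outside it.

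The position of Pde4b was the one in its promoter window printed above. At chr4:102589806 (+ strand), SSCT F2/P mice had 100, 33.3, 62.5, 50 and 32.6% and SSCT F2/M mice 71.1, 81.5, 100, 90.2 and 93.0%. SSCT F2/P replicate 1 alone was as high as SSCT F2/M. At Pde4a chr9:21184422 (− strand, 321 bp after a listed start), SSCT F2/P mice had 42.1, 69.2, 52.4, 30.4 and 0% and SSCT F2/M mice 17.1, 0, 0, 0 and 32.4%. At Pde2a chr7:101508036 (− strand, 51974 bp after the nearest listed start), these were 72.7, 75, 0, 39.4 and 100% and 100, 60, 100, 86.1 and 100%. At both, the groups shared part of the range. On the other strand of the Pde4a CpG, the 1 SSCT F2/P mouse measured had 20% and SSCT F2/M mice 15.4, 25.9 and 46.4%. On that of the Pde2a CpG, SSCT F2/P mice had 82.4 and 100% and SSCT F2/M mice 35.2, 100 and 100%. At Pde10a chr17:8801398 (+ strand, 347 bp before a listed start), SSCT F2/P mice had 0, 46.2, 0, 22.2 and 39.3%, and SSCT F2/M mice 6.25% in replicate 5 and 0 in the others. At Cnp chr11:100576071, the position of the widest spread in that gene, they had 60.9, 42.6, 60, 37.5 and 53.6% and 78.7, 77.8, 42.9, 84.8 and 82.4%. SSCT F2/P was lower at 3 of the 7 positions and higher at 4, where 0.221 and 0.183% of all positions were called in these directions. With each of the 10 mice left out in turn, the call remained 10 times in Pde4b and Cnp, 9 in Pde4a, 8 in Pde5a and Pde10a, 4 in Pde2a and 2 in Pde8a. With the unweighted mean of the mice, the differences in Cnp and Pde10a were -22.4 and 20.3 percentage points, and these calls were lost.

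**Figure D4:**
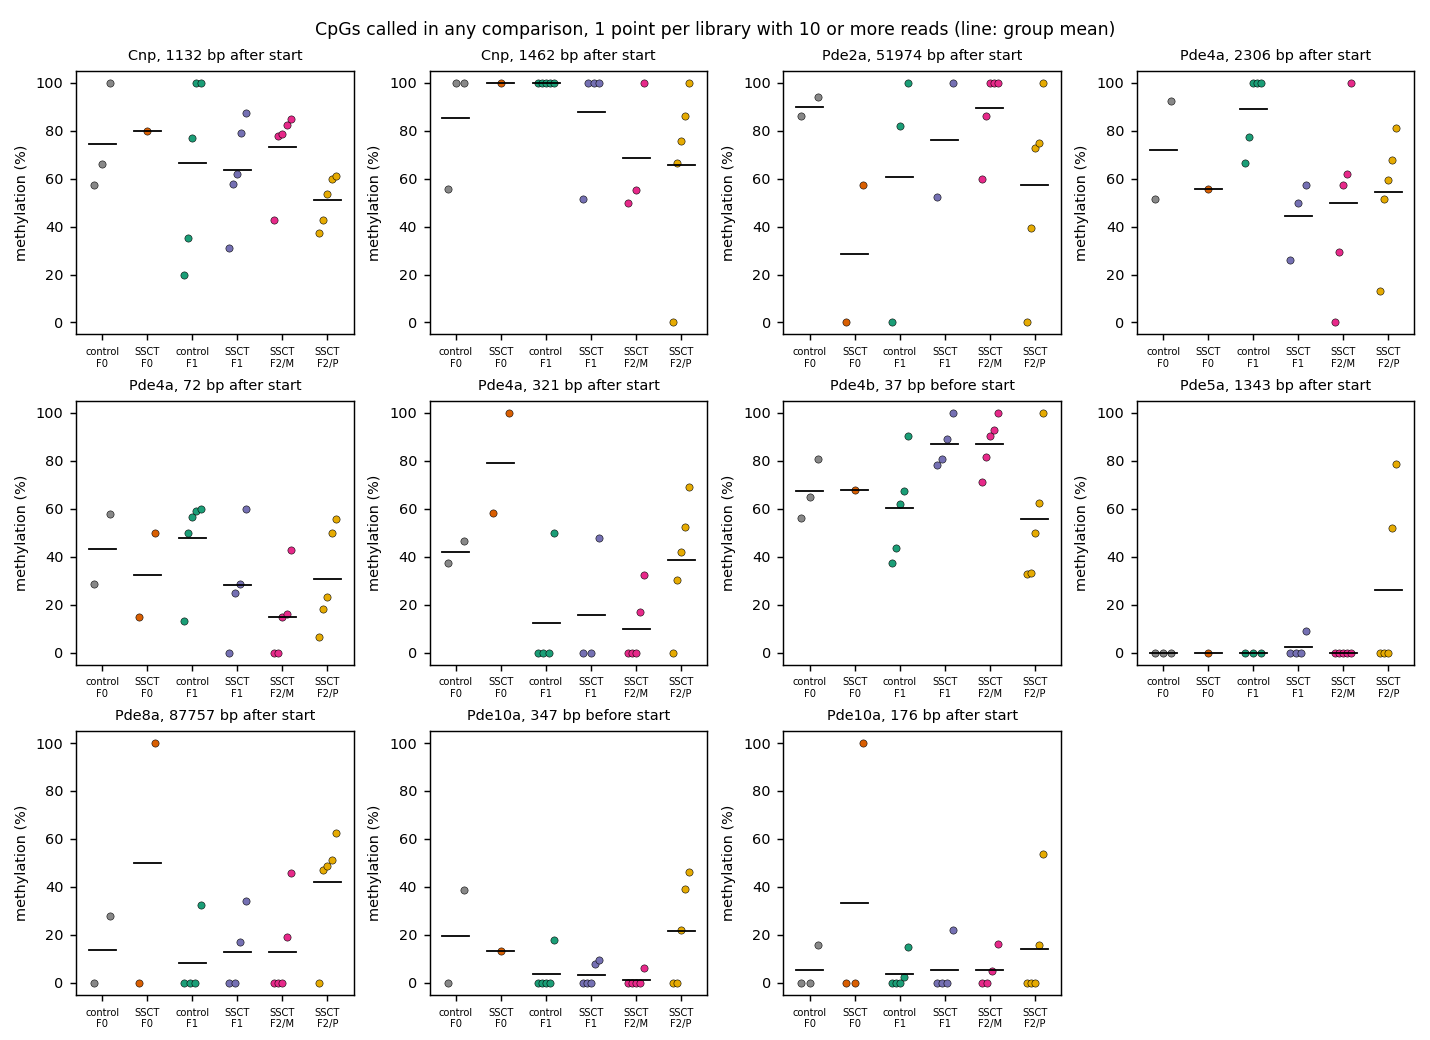
Methylation in percent at the 11 CpGs called in any of the 6 comparisons, named by gene and distance in bp from the nearest listed start. Points are libraries with 10 or more reads, sorted by value within a group, and lines are group means. At each CpG the compared groups overlap in part, and the mice of 1 group spread widely at most of them.

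Of 164 member windows in that comparison 1 was called, where 0.368% of all windows were. It was chr7:81301001-81302000 in Pde8a, and the 1 position it held was the called CpG. The only member window of this comparison whose groups did not overlap was chr9:21165001-21166000, at a start of Pde4a. Of all windows in it, 0.464% did not overlap. Over its 23 positions SSCT F2/P mice had 3.16% ± 1.37 and SSCT F2/M mice 1.61% ± 0.492 (SD, n = 5 each).

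With the spread between mice in the test, none of the 12 calls was made. In an F test with the Pearson chi-square as its scale, 0 member positions were called in all 6 comparisons, and 0 in the whole series. An unadjusted p under 0.05 was reached in it by 14 of 74 member positions for SSCT F0, 56 of 746 for SSCT F2/M and 69 of 745 for SSCT F2/P against their controls, where 11.6, 7.7 and 7.81% of all positions reached it. With a difference above 25 percentage points as well, Pde4a chr9:21184173 and Cnp chr11:100576401 were the 2 positions left for SSCT F2/M and SSCT F2/P against control F1, 1 in each, where 0.214 and 0.223% of all positions met both.

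Other genes of the pathway were counted by lists. Among 16 other phosphodiesterases, 3 of 590 positions were called for SSCT F2/M against control F1 and 1 of 565 for SSCT F2/P. Among 19 cyclases and natriuretic peptide receptors, which make the cyclic nucleotides, these were 3 of 743 and 3 of 810. Among 16 effectors, namely subunits of the kinases and channels that bind cyclic nucleotides and the Epac proteins, these were 3 of 743 and 3 of 782. These shares of 0.177 to 0.508% stand beside 0.42 and 0.43% of all positions. For SSCT F1 against control F1 the lists had 3 of 512, 3 of 687 and 3 of 640, where 0.462% of all positions were called, and for SSCT F1 against SSCT F2/M 5 of 517, 2 of 658 and 3 of 681, where 0.439% were. For SSCT F2/P against SSCT F2/M they had 2 of 605, 3 of 775 and 1 of 814, where 0.404% were. In the F0 comparison they had 2 of 49, 3 of 88 and 4 of 83, and without SSCT F0 replicate 3 they had 19 of 481, 44 of 649 and 29 of 615, where 5.83% of all positions were called with and without it. Pde11a, a phosphodiesterase for both nucleotides, had 3 of its 47 positions called lower in SSCT F1 than in control F1, as were 0.222% of all positions. Cnga3, a cyclic nucleotide-gated channel subunit, had 3 of 8 called higher in SSCT F0, as were 2.63% of all positions, and 2 of 29 without SSCT F0 replicate 3. Both genes are named for having the most calls. The median difference was 0 in the 9 genes, in each list and over all positions, in each comparison.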

How the data were processed

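RRBS was performed by the authors on sperm of 26 mice, with samples grouped by the library titles and each library from another mouse. Per the labels and the submitters' processing notes, FastQC, Trim Galore 0.4.1, Bismark 0.20.0 and methylKit 1.7.0 were used with GRCm38 (mm10). The deposited files give, per CpG position and strand, a methylation fraction and a read count. Group means of coverage in the study's supplement matched 0 of 52 under the titles, 34 of 52 under the names of its heatmap and 50 of 52 when the heatmap names of both F2 groups were exchanged, so the results under those names were also computed.

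Methylated reads were the fraction times the count, rounded. Positions in which all libraries compared had 10 or more reads, below the 99.9 percentile of coverage were tested by a logistic likelihood-ratio (chi-square) test over the whole series with Benjamini-Hochberg q-values, which are not the default of methylKit, per position and per 1000 bp window. Gene means were tested with limma 3.58.1 in R 4.3.3, and the rest was computed in Python 3.11.15 with numpy 2.4.6, pandas 2.3.3 and scipy 1.17.1. Scripts were tested on simulated data. Single called CpGs were given exact permutation tests over mice, whose smallest p is 0.00794 for 5 against 5 and 0.1 for 3 against 3. The median coverage of 24 libraries was 23 to 38, which limits single-CpG precision. Coordinates are 1-based, and 322478 of 322478 positions inside RefSeq promoter windows fell on a CG. Replicate numbers did not pair samples, as correlations of same-numbered samples lay between -0.0175 and 0.0227. No pair of the 46 pairs of libraries within groups agreed within sampling noise (smallest mean chi-square 8.18).

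The genes and pathway lists were chosen with earlier results of these data known. Named are all called CpGs and windows, the CpG with the largest SD in each gene, CpGs without overlap and a mean difference above 25 percentage points, and up to 3 genes with the most calls per list. Alternatives were the F test, limma on log2 ratios, 20 reads, no upper limit, merged strands, shifted windows, a difference above 10, other names, a replicate block and leaving out each library.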

Additional observations from a re-analysis of the deposited data

Results flagged for a closer look

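At the named CpGs, the highest or lowest mouse lay far from the others of its group in 19 of 66 groups of 4 or 5 mice, against about 1 in 20 that chance flags. Of 36 groups of gene means, 0 had such a mouse. These CpGs had been named for a wide spread or a call and many mice were at 0, so that this rate does not hold for them and nothing is read from the count. In 8 of the 19 groups all other mice had the same value, and in 2 the mouse apart had 1 methylated read.

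In control F1, the mouse apart had 17.8% at Pde10a chr17:8801398, 15% at Pde10a chr17:8801921, 13.3% at Pde4a chr9:21184173, 50% at Pde4a chr9:21184422, 71.7% at Pde4b chr4:102551537, 10% at Pde5a chr3:122729821, 60% at Pde8a chr7:81213584 and 32.5% at Pde8a chr7:81301022. In SSCT F1, it had 51.4% at Cnp chr11:100576401, 22.2% at Pde10a chr17:8801921, 42.4% at Pde4b chr4:102551537, 17.8% at Pde4c chr8:70744955 and 9.09% at Pde5a chr3:122730501. In SSCT F2/M, it had 42.9% at Cnp chr11:100576071, 6.25% at Pde10a chr17:8801398, 10% at Pde2a chr7:101451191 and 60.9% at Pde5a chr3:122729821. In SSCT F2/P, it had 69.2% at Pde2a chr7:101451191 and 0 at Pde8a chr7:81301022.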

How the results depend on the processing

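Member CpGs called numbered 1 for SSCT F0, 0 for SSCT F1, 2 for SSCT F2/M and 2 for SSCT F2/P against their controls, 7 for SSCT F2/P against SSCT F2/M and 0 for SSCT F1 against SSCT F2/M, and windows 0, 0, 0, 0, 1 and 0. In that order, a difference above 10 percentage points gave 6, 25, 21, 27, 26 and 23 CpGs and 2, 1, 2, 2, 3 and 4 windows. The F test and limma on log2 ratios gave 0 CpGs for SSCT F0, SSCT F2/M, SSCT F2/P and SSCT F2/P against SSCT F2/M, and 0 windows for the last. With 20 reads, CpGs were 0 for SSCT F2/M, SSCT F2/P and SSCT F2/P against SSCT F2/M, and windows 1 for SSCT F0 and 0 for the last, with fewer positions tested. With strands merged, CpGs were 2 for SSCT F0, 1 for SSCT F1, 5 for SSCT F2/P and 3 for SSCT F2/P against SSCT F2/M, and windows 1, 1, 2 and 0. Windows shifted by 500 bp gave 3 for SSCT F2/P against SSCT F2/M. With the names of the heatmap, SSCT F1 against control F1 had 7 CpGs and 1 window and SSCT F2/P 0 CpGs. With its SSCT F2/P and SSCT F2/M names exchanged, SSCT F1 had 7 CpGs and 1 window and SSCT F2/M 0 CpGs. Apart from those in the Results, shares of all positions and windows called under these settings are not given. The counts thus do not set these genes apart from the series.

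Leaving out 1 library gave 1 to 25 CpGs and 0 to 6 windows for SSCT F0, 0 to 3 and 0 to 1 for SSCT F1, 1 to 7 and 0 to 1 for SSCT F2/M, 1 to 7 and 0 to 2 for SSCT F2/P, 3 to 8 and 0 to 1 for SSCT F2/P against SSCT F2/M, and 0 to 3 and 0 to 1 for SSCT F1 against SSCT F2/M. CpGs for SSCT F0 were 25 without SSCT F0 replicate 3, 6 without SSCT F0 replicate 2 and 3 without control F0 replicate 3. CpGs for SSCT F2/M were 7 and 4 without control F1 replicates 5 and 1, and 1 without SSCT F2/M replicate 4. CpGs for SSCT F2/P were 7, 6 and 5 without control F1 replicates 3, 5 and 1, 4 without control F1 replicate 2 or 4 or SSCT F2/P replicate 1 or 3, and 1 without SSCT F2/P replicate 2 or 5. SSCT F2/P against SSCT F2/M had 3 and 4 without SSCT F2/P replicates 2 and 4. The cause of these changes was not tested. Shares of all positions called with 1 library left out are given only for SSCT F0 replicate 3, in the Results. Nothing about these genes against the series is read from the other counts. The Pde10a CpG chr17:8801921 ranged from -4.44 without SSCT F0 replicate 3 to 82.7 without SSCT F0 replicate 2.

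Of the 12 CpG calls, 12 were kept with a replicate block, 12 with no upper limit of coverage and 10 with the unweighted mean of the mice, and 92 of 116 values were called when 1 library was left out. The replicate block changed no count of calls by over 1.5 times, and numbers do not pair these samples. Of 706 alternative gene mean differences, 131 had the other sign and 0 were called by limma, with a lowest adjusted p of 0.4658.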
